A study of Homo sapiens with 6 samples.

Results

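The open chromatin regions described here were called in both untreated (control) ATAC-seq libraries of MCF10A cells and in neither ZnCl2-treated library, when equally long lists of the highest-scoring regions were compared. Of 26107 regions merged over 6 libraries, 974 met this rule, which is 3.73% of the merged regions and 6.22% of the 15653 regions present in both control lists. The members were chosen by the calls in the 4 control and ZnCl2 lists, so their absence from the ZnCl2 lists is the selection itself and was not tested. For comparison, 825 regions (3.16%) were in both ZnCl2 lists and neither control list, and 1183 (4.53%) were in both control lists and neither list of cells treated under TPA. Each list was limited to the same number of highest-scoring regions on chromosomes 1 to 22 and X, outside 28.5 to 50 Mb of chromosome 20. This rank limit was 4 above the 18883 regions that the shortest list, of ZnCl2 replicate 2, had there, so that this list entered whole. Rank 1 is the highest score of a library.

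ATAC-seq marks accessible DNA by the fragments that the Tn5 transposase releases from it. MCF10A is an immortal but not tumor-forming line of human mammary epithelium that is grown with horse serum, EGF, hydrocortisone, cholera toxin and insulin. Cells of all 3 groups were wild type and were first kept for 30 min in HHBSS, a HEPES-buffered Hanks salt solution without phosphate. They were then left untreated, given 50 μM TPA, which is tris(2-pyridylmethyl)amine, a Zn2+ chelator that enters cells, or given 30 μM ZnCl2, for 30 min, with 2 libraries per group. Open regions in each library came from HMMRATAC, a hidden Markov model caller, with a whole-number score per region. The lists hold no read counts, so that sequencing depth and fold changes in accessibility are unknown.

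Most accessible DNA of a mammalian cell lies either at promoters, which are usually rich in GC and CpG, or at distal elements such as enhancers, many of which are specific to a cell type. In epithelial cells, enhancers commonly carry binding sites for AP-1, the FOS and JUN factors, and for TEAD, RUNX and C/EBP factors. Zn2+ is a structural cofactor of zinc-finger transcription factors, and the Zn2+ sensor MTF1 binds metal response elements near metallothionein genes. The question behind the comparison is which accessible regions differ between cells in a Zn2+ rich state and untreated cells.

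The sequences below show what such regions look like. Each is a 300-base reference stretch of hg38, plus strand, 5′ to 3′, centered on the best-ranked call at a member. ITGB8, ZBTB16 and GLIDR stand for the members with the highest control ranks, FCGR1A and H2BC18 for those with no ZnCl2 call of any rank. TNFSF4, LAMC1 and SMAD3 were added after their values were seen, as examples of intronic members. Capitals mark the AP-1 consensus TGANTCA, on either strand, and a stretch without capitals has no such letters. GC content was 32% in the ITGB8 stretch, 59.0% in that of ZBTB16, 40% in that of TNFSF4, 39.7% in that of LAMC1, 55.0% in that of SMAD3, 49.7% in that of FCGR1A and H2BC18, and 64.7% in that of GLIDR.
ITGB8, chr7:20352441-20352740: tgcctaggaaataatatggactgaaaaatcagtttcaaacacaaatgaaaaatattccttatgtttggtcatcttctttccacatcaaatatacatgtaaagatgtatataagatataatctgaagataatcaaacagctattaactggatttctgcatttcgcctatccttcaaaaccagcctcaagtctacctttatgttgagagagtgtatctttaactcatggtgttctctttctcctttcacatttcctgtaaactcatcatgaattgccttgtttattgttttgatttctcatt
ZBTB16, chr11:114159886-114160185: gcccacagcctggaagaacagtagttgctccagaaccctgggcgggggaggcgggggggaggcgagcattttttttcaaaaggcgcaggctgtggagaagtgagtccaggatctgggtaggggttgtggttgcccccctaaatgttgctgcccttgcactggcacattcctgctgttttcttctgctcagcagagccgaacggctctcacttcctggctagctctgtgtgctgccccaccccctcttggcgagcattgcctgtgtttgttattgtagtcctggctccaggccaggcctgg
TNFSF4, chr1:173190761-173191060: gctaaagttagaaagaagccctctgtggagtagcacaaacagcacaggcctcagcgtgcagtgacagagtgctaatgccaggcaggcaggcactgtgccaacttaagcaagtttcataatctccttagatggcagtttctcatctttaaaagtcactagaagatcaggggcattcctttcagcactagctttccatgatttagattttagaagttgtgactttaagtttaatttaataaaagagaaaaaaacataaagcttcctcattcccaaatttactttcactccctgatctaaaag
LAMC1, chr1:183029661-183029960: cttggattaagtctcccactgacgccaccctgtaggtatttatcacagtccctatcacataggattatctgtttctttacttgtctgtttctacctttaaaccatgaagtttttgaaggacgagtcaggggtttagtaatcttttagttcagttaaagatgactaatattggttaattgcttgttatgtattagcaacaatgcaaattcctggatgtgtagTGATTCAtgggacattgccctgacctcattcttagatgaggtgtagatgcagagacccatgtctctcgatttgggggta
SMAD3, chr15:67146801-67147100: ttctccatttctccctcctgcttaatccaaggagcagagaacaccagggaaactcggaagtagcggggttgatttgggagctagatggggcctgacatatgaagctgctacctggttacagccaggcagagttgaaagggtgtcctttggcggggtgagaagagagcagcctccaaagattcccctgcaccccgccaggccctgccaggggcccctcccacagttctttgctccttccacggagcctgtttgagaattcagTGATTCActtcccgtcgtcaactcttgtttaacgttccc
FCGR1A and H2BC18, chr1:149787781-149788080: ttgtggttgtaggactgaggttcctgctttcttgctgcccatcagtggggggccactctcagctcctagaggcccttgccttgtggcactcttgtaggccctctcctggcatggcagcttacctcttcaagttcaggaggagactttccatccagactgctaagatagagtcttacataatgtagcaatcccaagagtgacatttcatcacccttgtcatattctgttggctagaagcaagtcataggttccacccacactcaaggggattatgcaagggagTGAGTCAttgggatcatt
GLIDR, chr9:39809536-39809835: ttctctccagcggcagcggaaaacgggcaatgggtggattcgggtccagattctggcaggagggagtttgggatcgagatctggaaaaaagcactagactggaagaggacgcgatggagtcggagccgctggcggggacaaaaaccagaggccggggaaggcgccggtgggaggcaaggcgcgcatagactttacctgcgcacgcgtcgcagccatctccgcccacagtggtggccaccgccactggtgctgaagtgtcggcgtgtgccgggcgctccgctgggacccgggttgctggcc

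The members were not absent from both ZnCl2 libraries at every score. In the full list of ZnCl2 replicate 1, 896 of 974 members (92.0%) had a call further down than the rank limit, at ranks from 18891 to 37469 with a median of 23570.5, and 78 had none. ZnCl2 replicate 2 had no call at any member, but its whole list was no longer than the limit, so regions further down could not be seen. The members are therefore regions below a common rank limit in the ZnCl2 lists, and whether their chromatin closed cannot be read from these lists. Of the 896, 659 (73.5%) lay more than 5000 ranks below the lower of their 2 control ranks, and the median distance was 7826.5 ranks. Within the control, the ranks of the same member were a median of 2387.5 apart and more than 5000 apart at 166 members (17.0%). Both distances are shaped by the rule, which keeps control ranks within the limit and the ZnCl2 rank past it. They are also different measures, so their contrast is not evidence of a treatment difference beyond replicate spread.

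Members came mainly from the lower part of the control lists. Their ranks ran from 125 to the limit in control replicate 1 (median 14789) and from 251 to 18871 in control replicate 2 (median 15345.5). With TPA, 955 members had a call of any rank in replicate 1 (median 13737) and 968 in replicate 2 (median 13319.5). The 13184 regions in both control and both ZnCl2 lists, called retained regions here, had median ranks of 7021 and 7110.5 in the control lists, 7310 and 7352 in the TPA lists and 7199.5 and 7136.5 in the ZnCl2 lists. Median scores of the members were 41 and 68 in the control, 58 and 65 under TPA and 44 in ZnCl2 replicate 1. Scores were not compared between libraries, since the lowest score that entered a list ran from 30 in ZnCl2 replicate 2 to 60 in control replicate 2.

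**Figure D1:**
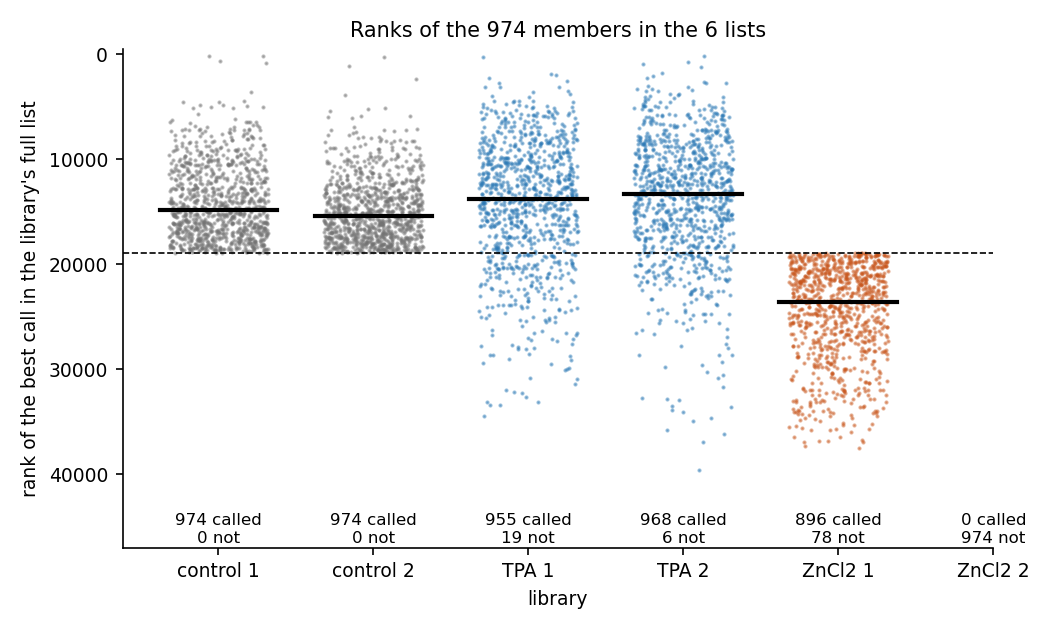
Rank of the best call at each of the 974 members in the full list of each library (vertical axis, rank 1 at the top), 1 point per member, with black bars at the medians and a dashed line at the rank limit. All control points lie above the line and all ZnCl2 replicate 1 points below it, as the rule fixes. The TPA lists entered the rule only through the merging of regions, and their points have medians of 13737 and 13319.5.

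The replicates of a group also differed. Of the regions in either control list, 5071 (24.5%) were in only 1 of the 2, against 4576 (22.3%) under TPA and 5170 (24.9%) with ZnCl2. With a library left out, the rule asks for fewer calls and the count grew from 974 to 1996 without control replicate 1, 2090 without control replicate 2, 1693 without ZnCl2 replicate 1 and 1771 without ZnCl2 replicate 2. Without read counts no single region was tested. The shares below describe sets of regions, and regions of 1 library are not replicates of a treatment.

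Members were poor in GC. Mean GC content was 43.8% ± 6.21 (SD over 974 regions), against 51.3% ± 6.64 in the 13184 retained regions, 52.8% ± 7.64 in the 825 regions in both ZnCl2 lists and neither control list, called ZnCl2-only regions here, and 49.8% ± 7.64 in all merged regions. GC content was under 40% in 294 members (30.2%), against 4.61% of the retained regions and 10.2% of all regions, and over 50% in 159 members (16.3%), against 57.5% and 47.7%. The 1495 regions in both control lists and only 1 ZnCl2 list lay between members and retained regions. Their mean was 47.1% ± 7.33, and 17.2% of them were under 40% GC. The name ZnCl2-only also refers to the rank limit, since 770 of the 825 (93.3%) had a call of some rank in control replicate 2 and 426 (51.6%) in control replicate 1. The ratio of observed to expected CpG had a median of 0.202 in members, 0.471 in retained regions and 0.313 in all regions. Regions in both control lists and neither TPA list stood at the other end, with 54.5% ± 7.04 GC, and that comparison used the same 2 control libraries. The share of members under 40% GC depended on the length of the lists, with 16.5% at 10000 regions per list and 44.5% with all regions of each list.

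**Figure D2:**
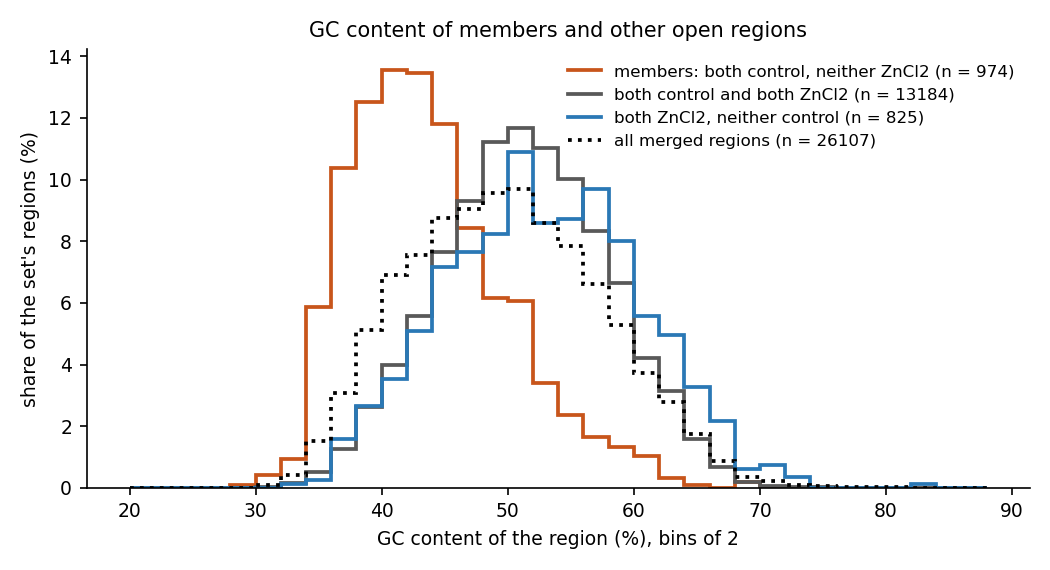
Share of regions (vertical axis, percent of each set) by GC content of the whole region (horizontal axis, percent, bins of 2) for members, retained regions, ZnCl2-only regions and all merged regions. The curve of the members is shifted to the left, with a mean of 43.8% against 51.3% in retained regions.

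GC content also differed between libraries of the same group. Mean GC of the regions used was 54.0% in control replicate 1 and 51.0% in control replicate 2. It was 52.1% and 51.6% in the TPA lists and 53.9% and 52.1% in the ZnCl2 lists. The control and ZnCl2 values overlapped at this level. Regions under 40% GC made up 6.12% and 7.75% of the control lists, 7.96% and 8.71% of the TPA lists and 3.94% and 6.06% of the ZnCl2 lists. Both ZnCl2 shares were under both control shares, with 6.06% and 6.12% nearly touching. Whether a difference in library preparation had a part in the GC content of the members was not tested.

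The members lay away from promoters. A promoter, the 1000 bp upstream of a gene's start, was overlapped by 126 members (12.9%), an exon by 133 others (13.7%), 367 were intronic (37.7%) and 348 intergenic (35.7%). Among retained regions the shares were 53.8%, 16%, 13.6% and 16.6%, and among ZnCl2-only regions they were 21.7%, 23.2%, 25.5% and 29.7%. The nearest start of a protein-coding gene was a median of 52686.5 bp from a member and 849 bp from a retained region. Such a start was more than 100 kb away for 337 members (34.6%), against 12.4% of retained regions, and lay inside 98 members (10.1%), against 49.3%. Regions in both control lists and only 1 ZnCl2 list were again between the 2 sets, with 25.1% at promoters and a median distance of 31990 bp. Members had a median width of 1830 bp, from 360 to 47460, against 2990 bp in retained regions. The promoter share was 20.8% without ZnCl2 replicate 1, 25.9% with 10000 regions per list and 4.49% with all regions of each list.

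GC content and position were not the same difference. Within each class, members had a lower mean GC content than retained regions, with 51.1% ± 6.85 and 53.5% ± 5.74 at promoters, 44.5% ± 5.84 and 51.7% ± 6.69 at exons, 41.9% ± 4.73 and 46.5% ± 5.88 in introns and 42.9% ± 5.50 and 47.9% ± 6.43 between genes. The gap was smallest at promoters. ZnCl2-only regions had 57.6%, 54.3%, 49.6% and 51.0% in the same order.

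Most members were also in the TPA lists, but a smaller share of them than of all regions in both control lists. Within the rank limit, 678 members (69.6%) were in both TPA lists, 180 (18.5%) in 1 and 116 (11.9%) in neither. Of all merged regions 60.9% were in both TPA lists and 21.5% in neither, of the regions in both control lists 84.1% and 7.56%, and of retained regions 86.2% and 6.83%. Of ZnCl2-only regions, 11.5% were in both TPA lists and 73.8% in neither. In the full TPA lists, 953 members (97.8%) had a call in both and 4 in neither, a share close to the 98.2% of all regions in both control lists and the 98.3% of retained regions that had a call in both. Both TPA ranks were better than both control ranks at 312 of the 953 (32.7%) and worse than both at 171 (17.9%), while among retained regions these shares were 22.8% and 31.4%. These shares were not matched for control rank. Median control ranks were 14789 and 15345.5 in members and 7021 and 7110.5 in retained regions, so members had more room above them. The part of control rank in this difference was not tested. The TPA and ZnCl2 comparisons share their control libraries, so the sets are given side by side only.

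The TPA calls went with position. Both TPA lists held 48.4% of the members at promoters, 61.7% of those at exons, 73.8% of those in introns and 75.9% of those between genes. The corresponding shares of retained regions were 84.9%, 83.2%, 91.2% and 89.2%. Members in both TPA lists had a mean GC content of 43.0% ± 5.53, those in 1 list 44.4% ± 6.09 and those in neither 47.7% ± 8.29. Promoters made up 9.0%, 17.8% and 28.4% of these 3 groups of members. Thus the 116 members that were also absent from both TPA lists were richer in promoters and GC than the rest.

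**Figure D3:**
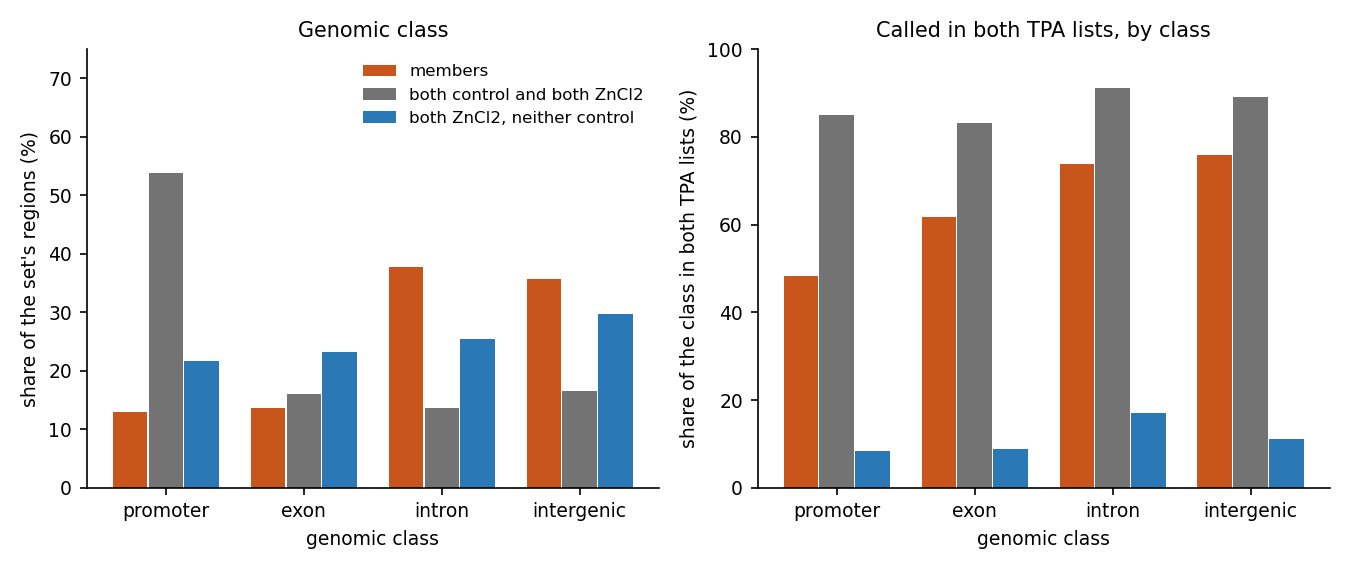
Left, the share of members, retained regions and ZnCl2-only regions in each genomic class (percent of the set). Right, the share of each class that was in both TPA lists (percent); members ran from 48.4% at promoters to 75.9% between genes, under the retained regions in every class.

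The share of members differed with rank in the control. Sorted by the lower of the 2 control ranks, members were 4 of 3894 regions (0.103%) at ranks 1 to 5000, 31 of 4125 (0.752%) at 5001 to 10000, 238 of 4318 (5.51%) at 10001 to 15000 and 701 of 3316 (21.1%) from 15001 to the limit. Regions close to the limit can cross it with a small change in score, and this holds for the TPA lists too. At the same ranks the TPA calls of members and retained regions were closer than over all ranks, with 87.8% and 80.0% in both TPA lists at ranks 10001 to 15000 and 62.6% and 60.8% from 15001 to the limit. At ranks 5001 to 10000 the shares were 87.1% and 92.9%, from 31 members. These rank groups mix genomic classes. Among intronic and intergenic regions with a lower control rank past 10000, the shares were 74.4% of 691 members and 84.6% of 2143 retained regions. There, 8.68% and 6.63% were in neither TPA list. The GC content of the members was lower at the same ranks as well, with 42.8% ± 5.45 against 50.9% ± 6.90 at ranks 10001 to 15000 and 44.1% ± 6.36 against 50.8% ± 7.03 from 15001 to the limit.

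**Figure D4:**
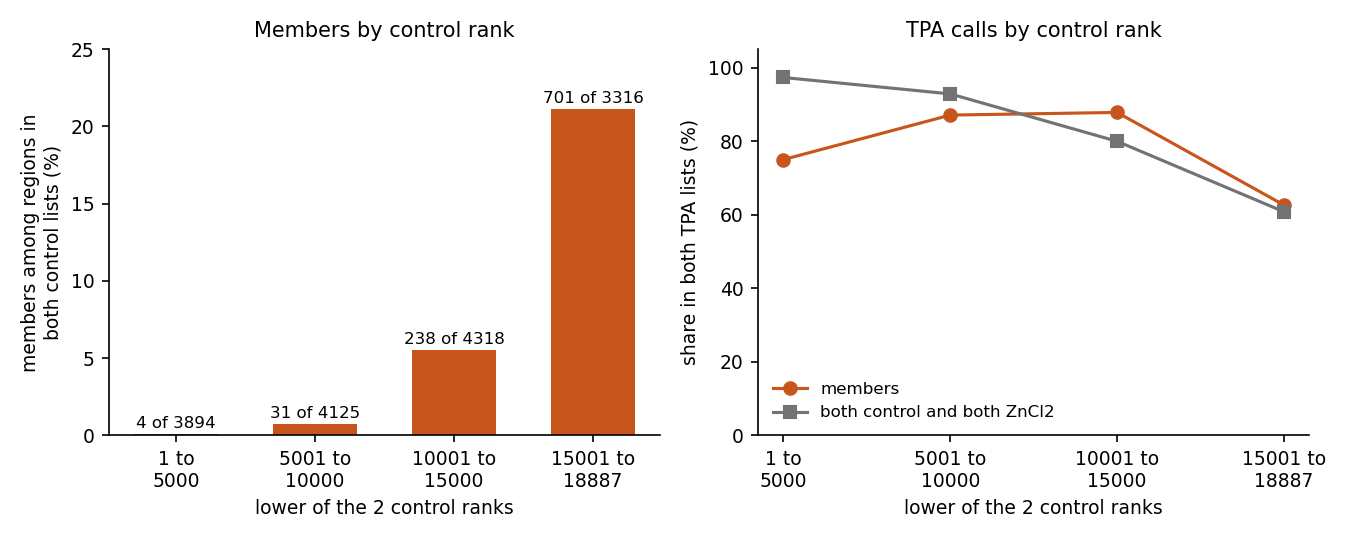
Left, members as a share of the regions in both control lists (percent), by the lower of the 2 control ranks, with counts above the bars. Right, the share of members and of retained regions that were in both TPA lists (percent) in the same rank groups; the curves cross between ranks 5001 to 10000 and 10001 to 15000 and end at 62.6% and 60.8%.

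GC content differed with depth in the list of ZnCl2 replicate 1. The 229 members past the limit but no further than rank 21000 there had 46.4% ± 6.48 GC, the 315 from there to rank 25000 had 43.7% ± 6.11, the 352 past rank 25000 had 42.7% ± 5.52 and the 78 without a call had 41.9% ± 6.47. Introns held 33.6%, 31.7%, 42.9% and 50% of the members in these groups. Both TPA lists held 70.7%, 69.5%, 69.3% and 67.9% of them. The share in neither TPA list was 20.5% among the 78 without a call and between 10.5% and 12.1% in the other 3 groups. A lower GC content at deeper ranks was not particular to members. In each of the 6 lists, the regions used past rank 15000 had a lower mean GC content than all regions used. The values were 51.3% against 53.9% in ZnCl2 replicate 1 and 51.1% against 54.0% in control replicate 1.

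Consensus letters of transcription factors were counted in 300 bp windows centered on the best-ranked call, on both strands. The AP-1 letters TGANTCA were found in 388 members (39.8%), against 19.8% of retained regions and 26.5% of all regions. This followed position, since among intronic and intergenic regions the shares were 45.5% in members, 44.2% in retained regions and 42.8% in all regions. It was 29.5% in ZnCl2-only regions. The TEAD letters GGAATG were likewise in 23.5% of distal members and 23.5% of distal retained regions. AP-1 letters were in 41.2% of the members in both TPA lists and 31.9% of those in neither.

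Other letters differed between distal members and distal retained regions. C/EBP letters (TTGCNNAA) were in 24.2% and 15.9%, GATA letters (AGATAA) in 18.2% and 12.3%, RUNX letters (TGTGGTT) in 12.6% and 9.03%, homeodomain letters (TAATTA) in 9.23% and 5.07% and FOX letters (TGTTTAC) in 8.39% and 4.51%. Lower in members were SP/KLF letters (GGGCGG), with 3.36% and 14.3%, and ETS letters (CCGGAAG), with 0.559% and 2.76%. The letters TGCNCNC, with 32% and 49.0%, were also lower. They are a looser form of the metal response element core and were in 52.9% of all merged regions. Their share is therefore not a share of MTF1 elements. The longer CTCF consensus was matched in 0.420% of distal members, 1.68% of distal retained regions and 8.57% of distal ZnCl2-only regions. A single p53 repeat was matched in 11.0% of distal members, 9.81% of distal retained regions and 9.53% of all distal regions. POU letters (ATTTGCAT) were in 3.08% of distal members and 1.53% of distal retained regions. CREB letters (TGACGTCA) and the glucocorticoid response element were each in 0.420% of distal members. The smallest of these shares stand for few of the 715 distal members.

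Base composition moved with these shares. Distal windows had a mean GC content of 42.9% in members and 50.4% in retained regions, and the letters that were more frequent in members hold more A and T, those that were less frequent more G and C. Limited to distal regions with a lower control rank past 10000, which left 691 members and 2143 retained regions, the C/EBP shares were 24% and 15%, the FOX shares 8.68% and 4.25% and the AP-1 shares 45.7% and 44.7%, with 42.4% ± 5.05 and 47.1% ± 6.17 GC. The part of base composition in these differences was not tested. Each consensus was searched on its own, so that matches of different factors may overlap, and a match is a description of letters, not a bound site.

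**Figure D5:**
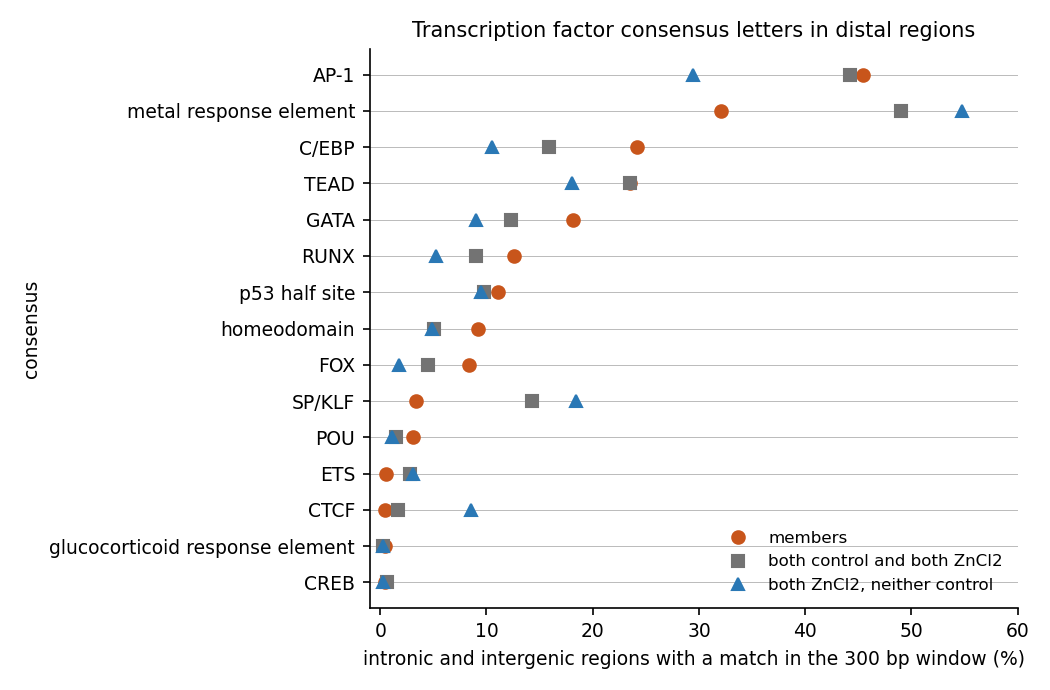
Share of intronic and intergenic regions whose 300 bp window holds each consensus (horizontal axis, percent) in members, retained regions and ZnCl2-only regions. AP-1 and TEAD points of members and retained regions nearly coincide, and C/EBP, GATA and FOX points of members lie to the right. SP/KLF points of members lie to the left, as do those labeled metal response element, for the looser letters TGCNCNC.

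The members with the best control ranks fell into 2 kinds. The first kind, at ITGB8, ZBTB16, TNFSF4 and LRIG3-DT, had no repeated sequence and a call further down in ZnCl2 replicate 1. The ITGB8 member (chr7:20350631-20353860, 38.7% GC, overlapping an exon), in the gene of the integrin beta-8 subunit, which activates latent TGF-beta, ranked 4821 and 5054 in the control, 4992 and 2981 under TPA and 25747 in ZnCl2 replicate 1. The corresponding scores were 64, 111, 85, 106 and 41. Its TPA ranks were both better than the lower control rank, and the ZnCl2 replicate 1 call stood far below all of them.

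ZBTB16, which encodes the zinc-finger repressor PLZF, a gene induced by glucocorticoids, held a member of 10910 bp (chr11:114153851-114164760). It ranked 4985 and 5236 in the control, 5806 and 5133 under TPA and 19438 in ZnCl2 replicate 1, just past the limit. The member in an intron of TNFSF4, the OX40 ligand (chr1:173189811-173192060), ranked 6218 and 6906 in the control, 4877 and 3445 under TPA and 21452 in ZnCl2 replicate 1. In an intron of the long noncoding RNA gene LRIG3-DT (chr12:59039381-59042470) the ranks were 4840 and 5881, 7962 and 6255, and 21335. At all 4 loci every TPA rank was within the limit.

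The other kind had no ZnCl2 call of any rank and, in most cases, repeated sequence. The GLIDR promoter (chr9:39809221-39810210), of a long noncoding RNA gene, ranked 575 and 251 in the control and 192 and 149 under TPA. Of 10 pieces of 31 bases taken across its window, 6 occur elsewhere in the genome, in up to 7 copies in all. The intronic LINC00623 member (chr1:120913631-120914680) ranked 4504 and 3823 in the control and 2543 and 720 under TPA, with 7 of 10 pieces repeated. The member at FCGR1A and H2BC18 (chr1:149787781-149788580), the latter a histone H2B gene, ranked 3548 and 5391 in the control, had no call in TPA replicate 1 and ranked 1217 in TPA replicate 2, with 9 of 10 pieces repeated.

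In an intron of the transporter gene SLCO5A1 (chr8:69690091-69690470), a member of 380 bp ranked 125 and 1095 in the control, had no call in TPA replicate 1 and ranked 899 in TPA replicate 2, with 7 of 10 pieces repeated. At the pseudogene RPL18AP8 (chr3:96618149-96618508) the ranks were 181 and 5832 in the control, with no call in any other list. Of its 15-base pieces, 48.6% also occur in the mitochondrial genome, and no other member reached 10%. Reads that lie wholly in repeated sequence cannot be placed with certainty, and the blacklist of the study's methods was not applied here. All 10 pieces were repeated in 2 members (0.205%) and in 0.440% of retained regions. At least 1 of 10 pieces was repeated in 157 members (16.1%), 12.5% of retained regions and 23.6% of ZnCl2-only regions. Among the 78 members without any ZnCl2 call, 24 (30.8%) had such a piece. These 78 had 41.9% ± 6.47 GC, 53 of them were in both TPA lists and 16 in neither.

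Promoters of protein-coding genes were overlapped by 100 members. The one with the best control ranks was the promoter shared by CHD1, a chromatin remodeler that binds methylated histone H3 lysine 4, and CHD1-DT (chr5:98926936-98930525, 54.6% GC). It ranked 4984 and 2325 in the control and 7640 and 4400 under TPA, and had no ZnCl2 call of any rank. None of its 10 pieces was repeated, so that this promoter was the exception among the highest-ranked members without a ZnCl2 call.

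The member at ASH1L, a histone H3 lysine methyltransferase gene, and MSTO1 (chr1:155554361-155586220) ranked 8388 and 7929 in the control and 5826 and 5331 under TPA, again with no ZnCl2 call. Its width of 31860 bp came from 1 call in TPA replicate 2. The EIF3B and SNX8 promoters (chr7:2353491-2357950) ranked 8367 and 9538, 7943 and 14935, and 21303 in ZnCl2 replicate 1. EIF3B encodes a subunit of translation initiation factor 3. At ECH1, an enzyme of fatty acid oxidation (chr19:38830621-38833150), the ranks were 9934 and 9347 in the control, 5040 and 5236 under TPA and 29125 in ZnCl2 replicate 1.

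The promoter of ZRANB2, a zinc-finger splicing factor (chr1:71079881-71081860), ranked 7900 and 9943 in the control, 16602 and 9390 under TPA and 27146 in ZnCl2 replicate 1. The promoter of MRPS16, a mitochondrial ribosomal protein (chr10:73251491-73253750), ranked 10968 and 7974 in the control, 18396 and 21108 under TPA and 20270 in ZnCl2 replicate 1. Only MRPS16 among these 6 was past the limit in a TPA list, in replicate 2.

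In all, members overlapped the body or promoter of 666 genes, 515 of them protein-coding. Of the protein-coding genes 45 held 2 or more members, and PRKCE and ARHGAP26 held 3 each. In PRKCE, the gene of protein kinase C epsilon, the 3 members were among 8 regions in both control lists, and in ARHGAP26, a regulator of RHOA, among 11. One intronic PRKCE member (chr2:45991451-45994260) ranked 13010 and 12430 in the control, 1834 and 4985 under TPA and 21341 in ZnCl2 replicate 1. All 3 regions in both control lists at MIRLET7BHG, host of let-7 microRNAs, were members, at 58.0% to 58.6% GC.

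Genes of 14 lists were looked up. Hemidesmosome, laminin and integrin genes, which anchor basal epithelial cells to the basement membrane, held members at 5 of 19 genes. Of their 41 regions in both control lists, 5 (12.2%) were members, against 6.22% over all regions. The shares of this list and the lists below were not matched for position. Over all regions in both control lists, members were 367 of 2618 intronic regions, 348 of 2969 intergenic regions and 126 of 7590 at promoters. Besides ITGB8 the members of this list included DST, LAMA3 and LAMC1, all intronic, with 40.8% to 43.5% GC. The LAMC1 member (chr1:183028861-183030580), in a laminin subunit gene, ranked 9032 and 12880 in the control, 5740 and 8474 under TPA and had no ZnCl2 call. The DST member (chr6:56713011-56715930), in the gene of the hemidesmosome linker dystonin, ranked 14746 and 17699 in the control, 8403 and 17415 under TPA and 20422 in ZnCl2 replicate 1.

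Basal epithelial transcription factor genes held members at 4 of 30 genes, and 5 of 45 regions in both control lists (11.1%). They were intronic regions of RUNX1 (2 of them), RUNX2, TEAD1 and TP63, the gene of the basal cell factor p63. The TEAD1 member (chr11:12801662-12803731) ranked 9084 and 12513 in the control, 9990 and 8801 under TPA and 24840 in ZnCl2 replicate 1. The TP63 member (chr3:189710591-189711420) ranked 16179 and 17597, 20046 and 14373, and 25147. These counts are small, and they describe the lists only.

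Of the matrix and mesenchymal genes, FBN2 (2 members) and LOXL2 held 3 of 24 regions (12.5%). The intronic FBN2 member at chr5:128436061-128437530 ranked 13510 and 15039 in the control, 27881 and 16925 under TPA and had no ZnCl2 call. LOXL2, a lysyl oxidase that crosslinks collagen, shares its member (chr8:23420541-23422200) with ENTPD4, and it ranked 15113 and 11665, 12313 and 18767, and 28375, with 4 of 10 pieces repeated. In the TGF-beta pathway, 3 of 33 regions were members, at BMPR1B, SMAD3 and TGFB3.

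The SMAD3 member (chr15:67146001-67147820), in an intron of a signal transducer of TGF-beta receptors, ranked 16479 and 14253 in the control, 18987 and 17602 under TPA and 21385 in ZnCl2 replicate 1. At the TGFB3 promoter (chr14:75980721-75983510, 56.7% GC), within IFT43, the ranks were 10949 and 16037, 19628 and 14487, and 22090. Both were past the limit in TPA replicate 1 but not in TPA replicate 2.

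Genes of Zn2+ handling held 1 member among 31 regions in both control lists (3.23%), at the promoters of SLC39A9, a ZIP-family Zn2+ transporter, and its neighbor ERH (chr14:69397121-69400170). It ranked 16561 and 13397 in the control, 13084 and 13653 under TPA and 31926 in ZnCl2 replicate 1. No metallothionein gene held a member. In the list of AP-1 factor genes, 1 of 19 regions was a member, a 19430 bp region at MAF (chr16:79598371-79617800). It ranked 17921 and 16000, 7935 and 8292, and 24656. MAF is not a FOS or JUN gene, and no FOS or JUN gene of the list held a member. The width of this region came from 1 call in TPA replicate 2, while the control calls in it were 2130 and 3210 bp wide.

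The remaining lists held 0 to 2 members each. PERP, a p53 target and desmosome component, had the only member of 16 regions of keratin and desmosome genes (chr6:138086371-138089630), with ranks of 7235 and 8130 in the control, 6087 and 4181 under TPA and 20092 in ZnCl2 replicate 1. The p53 pathway had 1 of 30, at the promoter of the apoptosis effector BAX (chr19:48954101-48955920), with 14516 and 16538, 18427 and 10870, and 19058, just past the limit. The chemokine gene CXCL2 (1 of 10 regions in the cytokine list, chr4:74097681-74099850) ranked 17126 and 15727, 20806 and 21025, and 23402, so that it was past the limit in both TPA lists too.

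The Hippo kinase gene STK3 (1 of 28, chr8:98398021-98400420) ranked 9893 and 12797, 9970 and 7311, and 28071. The cell cycle inhibitor CDKN1B (1 of 26, chr12:12720551-12727130) ranked 16284 and 16345, 23728 and 16983, and 23934. ZBTB16 was the 1 of 14 among glucocorticoid targets, and CNTNAP2 and CNTNAP5 were the 2 of 19 among neural adhesion genes. None of the 23 regions in both control lists at genes of the EGF receptor family and its ligands was a member.

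Members were spread over the genome, with some local groups. Their share of the regions in both control lists ran from 2.37% on chromosome 19 (17 members) to 9.65% on chromosome 13 (36 members), and chromosome 1 held the most members (121). Across the 23 chromosomes this share and the mean GC content of the regions in both control lists had a Spearman correlation of -0.744, as a description. Only 44 members (4.52%) lay within 5 Mb of a chromosome end, against 11.7% of retained regions. A member was found in 744 windows of 1 Mb, and 564 of these held 1 member and 42 held 3 or more.

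The window with the most members was 62 to 63 Mb of chromosome 15, where 5 of 11 regions in both control lists were members. Of them, 2 lay in TLN2, the gene of the focal adhesion protein talin 2, and 3 had their nearest coding start at TPM1, tropomyosin 1, including 1 of those in TLN2. The next was 71 to 72 Mb of chromosome 17, where 4 of 7 regions were members, none in a gene, at 679143 to 707295 bp from SOX9, a transcription factor of epithelial progenitor cells. These 4 ranked 14148 to 18398 in the control, 4417 to 13273 under TPA and 19195 to 23429 in ZnCl2 replicate 1. In the window at 115 to 116 Mb of chromosome 8, 4 of 11 regions were members, and 2 of these 4 lay in TRPS1, the gene of a GATA-family repressor.

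At the rank limit itself, members and other regions differed little. The member with the lowest control rank, between genes at chr19:55446981-55448830, ranked exactly at the limit in control replicate 1, while the region at chr6:77292101-77294140 missed the limit at rank 18892 with the same score of 35. Among members, an exonic region of RBFOX2, a splicing factor (chr22:35838471-35841000), had the ZnCl2 replicate 1 call nearest to the limit, at rank 18891. A region at NOTO and SMYD5 (chr2:73212201-73216040) was not a member because its call ranked 18882 there. Both calls had a score of 51.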

How the data were processed

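Nuclei of MCF10A cells were tagmented, and pooled libraries were sequenced in 2 runs. The authors trimmed and mapped read pairs to hg38 and called open regions per library with HMMRATAC. The submitters' processing notes name FastQC 0.11.8, HISAT2 2.1.0 and SAMtools 1.8. The deposited lists give a score per region, whose kind is not given in the sources used here. The study's later steps (merging, blacklist, read counts) were not repeated here. The methods call the replicates biological and the results technical, so spread between libraries may be technical.

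Regions on chromosomes 1 to 22 and X were kept, without 28.5 to 50 Mb of chromosome 20, where ZnCl2 replicate 2 lists no region and the other lists 294 to 473. The same number of highest-scoring regions was taken per list (ties: wider, then chromosome and start), between 42.8% and 100% of a list. This number is the count of ZnCl2 replicate 2 regions on chromosomes 1 to 22, X and Y. Regions that overlapped or touched were merged over the 6 lists, with the same result as bedtools 2.31.1, and an overlap of 1 bp counted. Genes were the 40050 of 62062 GENCODE release 44 genes that RefSeq also lists. Classes were assigned in the order promoter, exon, intron, intergenic. GC content and windows came from hg38 without repeat masking. Named were the 10 members with the best lower control rank, the first 6 at coding promoters, the first 6 without a ZnCl2 call, up to 2 members per gene list, 3 windows of 1 Mb and the regions at the limit. DST, TP63, PRKCE, MIRLET7BHG, the loci in windows and further list genes were named after their values were seen. The values of 1 gene are not reported here. The members and lists were chosen with earlier results of these data known. On simulated lists of 26000 regions, the rule found all 200 planted members and called 26 others. The planted members were set far from the limit with little noise, so that their recovery was fixed in advance. It checks the code and not how the rule does with real replicates. No read counts were used, so no interval for depth is given. Alternatives were other list lengths, overlaps, merges, tie orders and promoter definitions, leaving out each library, and the replicate number as a block. Python 3.11.15, NumPy 2.4.6, pandas 2.3.3, SciPy 1.17.1 and Matplotlib 3.10.9 were used.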

Additional observations from a re-analysis of the deposited data

How the results depend on the processing

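The count of 974 members stayed within 1.5 times under 5 settings, from 710 (at least 50% of the merged region covered) to 986, and was 587 with 10000 regions per list. Leaving out 1 library gave 1693 to 2090, since fewer calls were then required. With the replicate number as a replicate block, 3088.5 regions on average were in a control list and not in the ZnCl2 list of the same number (3125 for number 1 and 3052 for number 2). In the opposite direction there were 3300 and 2876, so that the order of the directions differed between the numbers. Only 78 members had no call in the full ZnCl2 lists, a setting added after seeing the data.

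The share of members under 40% GC (30.2%) was 16.5% with 10000, 21.6% with 14000 and 44.5% with all regions of each list, 21.9% to 28.2% with 1 library left out, 43.6% without any ZnCl2 call and 35.9% in introns and intergenic sequence (both added later). The promoter share (12.9%) was 25.9%, 19.9% and 4.49% at these lengths, 11.1% to 20.8% with 1 library left out and 4.72% by region center. The share in both TPA lists (69.6%) was 66.1% with 10000 and 88.9% with all regions, 59.6% with at least 50% covered and 97.8% with whole TPA lists. It was 49.5% to 73.2% with 1 control or ZnCl2 library left out. Leaving out a TPA library changed the measure to the share in the other TPA list. That share was 80.7% without TPA replicate 1 and 76.9% without TPA replicate 2. The share with a lower call in ZnCl2 replicate 1 (92.0%) was 98.1% with 10000 and 96.6% with 14000 regions, and 85.7% to 90.9% with 1 library left out. The cause of these shifts was not tested beyond the construction of each setting.

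Scores without read counts limit all of this to ranks. The ranks near the limit, where 701 of the 974 members lie past rank 15000, separate members from other regions by small differences in score.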
